A study of Mus musculus with 6 samples.

Results

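The complement system was followed here through 32 transcripts, chosen by gene symbol from the 18720 rows of the deposited tables. They encode the recognition molecules, proteases, convertase components, lytic components, regulators and receptors of the cascade, and all 32 were found and passed the filter of a mean value of at least 10. They were divided by the cell that makes most of each protein in liver, as textbook knowledge has it: 20 hepatocyte-made members, 7 macrophage-made members, and 5 with another or a broad source. The rule uses names only and no measured value, but the list was drawn up with earlier results of these data known.

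Poly(A) RNA had been sequenced from livers of male C57BL/6 mice, 1 year old, all kept on a high-fat diet (HFD). For 12 weeks they were injected intraperitoneally 2 times a week with vehicle (Veh) or with R159, whose chemical identity the labels leave unstated. There were 3 R159 libraries and 3 vehicle libraries, values are given below in the order of replicates 1 to 3, and no group on a normal diet is used here. Whether each library is a different mouse is not stated in the labels. The p-values therefore describe the scatter among these libraries, part of which may be technical. By its title the series is about blocking a non-canonical arm of gp130, the receptor subunit shared by cytokines of the interleukin-6 family.

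Complement is a cascade of plasma proteins that marks microbes and damaged cells. It starts from antibody and C1q (classical pathway), from sugar-binding collectins and ficolins (lectin pathway) or from slow spontaneous activation of C3 (alternative pathway). All branches cleave C3 and then C5, and end in a pore made of C5b to C9. Hepatocytes secrete most of the plasma components, several of them as acute phase proteins that respond to interleukin-6, whereas C1q is made mainly by macrophages.

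Depth, estimated from the step between low values, was 51.3 to 55.7 megareads in R159 and 66.0 to 76.7 megareads in vehicle. Values are normalised estimated counts, and log2 fold changes are R159 minus vehicle on the log2(value + 1) scale. The 10 hepatocyte markers made up 9.13% to 11.8% of all values in R159 and 8.84% to 11.2% in vehicle, a share weighted to the most abundant of them. By limma, at an adjusted p under 0.05, 1 of the 10 rose and 2 fell, where 12.8% and 14.2% of all tested genes did. Their groups did not overlap for 3 that were higher and 3 that were lower, against 22.5% and 23.6% of all genes. Vehicle libraries correlated with one another at r = 0.979 to 0.986 across genes and R159 libraries at 0.939 to 0.949, and R159 replicate 2 stood farthest from vehicle (0.910 to 0.918). Fold changes fell with transcript length over all genes (Spearman's rho = -0.44 across 13501 coding genes, which are not independent replicates). Values after this trend was removed, called length correction below, are given beside the main results, and for all members in the plot of log2 fold changes.

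Most complement transcripts did not pass the test. limma called 4 of the 32 members at an adjusted p under 0.05, where 27.0% of all 16594 tested genes were called. C8g and Mbl1 rose and Masp1 and C3ar1 fell. Across all genes 12.8% were called higher and 14.2% lower, and with upper quartile normalisation, which moved the median of all genes by 0.12, the calls split into 2693 higher and 1693 lower in place of 2125 and 2354. The groups did not overlap for 6 members that were higher and 5 that were lower, against 22.5% and 23.6% of all genes (46.2% in either direction). The median log2 fold change of the members was -0.08, beside 0.00 over all genes. Of the 20 hepatocyte-made members 2 rose, 1 fell and 17 did not pass (median -0.11). Of the 7 macrophage-made members 0 rose and 1 fell by limma (median -0.34, 3 at an unadjusted p under 0.05), and of the 5 others limma called 0 (median 0.11, 2 at an unadjusted p under 0.05). An unadjusted limma p under 0.05 was reached by 6880 of all 16594 tested genes, the background for such counts here and below.

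**Figure D1:**
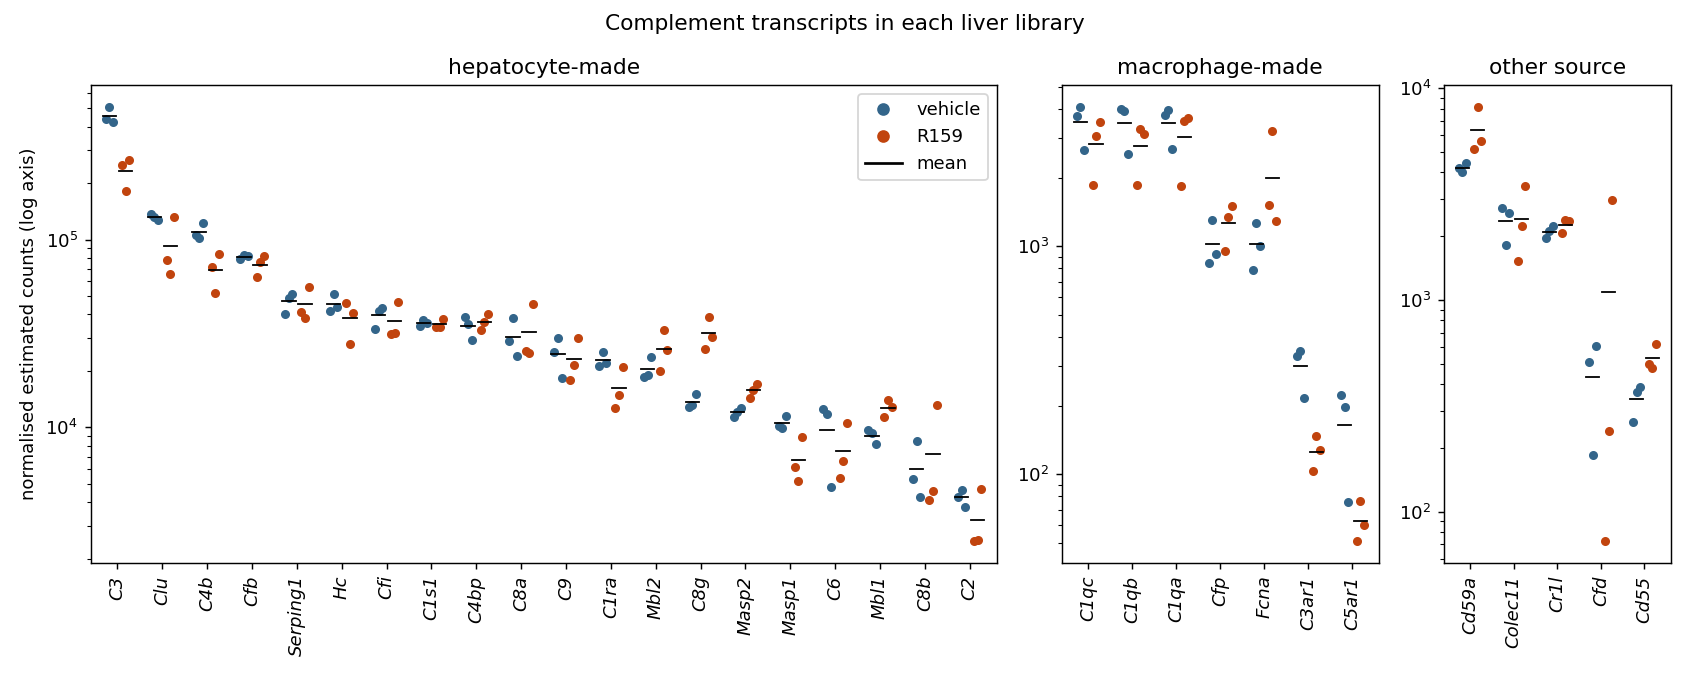
Normalised estimated counts of the 32 complement transcripts in each library (points, replicates 1 to 3 from left to right within a group; log axis) with the group means (bars), sorted within each source by the vehicle mean. C8g, C3, C4b, Masp1 and C3ar1 are among the transcripts whose groups do not overlap, and R159 replicate 3, the rightmost R159 point, is often the highest of its group.

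The R159 libraries differed from one another in a way that touches these results. R159 replicate 3 had the highest value of its group for 22 of the 32 members and for 16 of the 20 hepatocyte-made ones, where it was highest for 28.7% of all tested genes. R159 replicate 1 was the lowest for 22 members. Without R159 replicate 3, limma called 5 hepatocyte-made members lower (C1ra, C2, C4b, Clu and Masp1) in place of 1, 1 higher (C8g) in place of 2, and the macrophage-made Fcna higher. In all it called 8 of the 32 members in that setting, where 23.59% of all genes were called. The values were then -0.73 for C1ra (limma adjusted p = 0.0316) and -0.85 for C4b (0.0491). Without vehicle replicate 1 or vehicle replicate 2 it called 1 member in all, where 15.05% and 11.17% of all genes were called.

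C8g, the gamma chain of C8, gave the clearest difference. C8 is a component of the membrane attack complex, the pore that complement inserts into membranes, and its gamma chain is a small lipocalin joined to the alpha chain. C8g measured 26012, 38831 and 30216 with R159 and 12874, 13200 and 15083 with vehicle. Every R159 library was above every vehicle library. The rise was 1.19 in log2 units (SE 0.20, limma adjusted p = 0.00497), a fold of 2.28. limma called it in all 18 alternative settings, with log2 fold changes of 0.66 to 1.32 and adjusted p of 0.00154 to 0.0278. Its transcript is short (1150 nt), and 0.66 (adjusted p = 0.0163) is the value after removal of the length trend. Per kilobase of transcript C8g ranked 10 among the members in vehicle and 3 in R159.

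The partner chains of C8g gave no such difference. C8a, the alpha chain, came to 25620, 24880 and 45610 in R159 livers, and to 28918, 38114 and 23920 in vehicle livers (log2 fold change 0.05, 95% interval -0.59 to 0.68, and 0.30 after length correction). C8b, the beta chain, was 4093, 4585 and 13088 in the R159 libraries against 5336, 8491 and 4244 in vehicle (0.12, interval -0.84 to 1.08). Both were highest in R159 replicate 3, and the groups overlapped. The ratio of C8g to C8a in the same library measured 1.02, 1.56 and 0.663 with R159 and 0.445, 0.346 and 0.631 with vehicle. It was thus higher in all R159 libraries, by little in replicate 3. The C8a transcript is longer (3617 nt) than that of C8g. A two-sided exact permutation test over 3 against 3 libraries gave p = 0.1, the smallest that it can give, and adjusted p = 0.18 over the 9 partner ratios computed.

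The other components of the lytic pore stayed within the spread of the libraries. Hc, which encodes C5, the component split into the anaphylatoxin C5a and the first part of the pore, had a log2 fold change of -0.29 (interval -0.82 to 0.24, transcript 5445 nt) and 0.15 after length correction. C6, which joins C5b, came to 5396, 6597 and 10566 in R159 livers, and to 12542, 11723 and 4848 in vehicle livers, so 1 vehicle library lay under all R159 libraries. C9, which polymerises to form the wall of the pore, was 23113 ± 6102 in R159 and 24547 ± 5751 in vehicle (SD, n = 3 each).

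C3, on which all pathways converge, was the most abundant member per kilobase in vehicle. C3 was 250210, 182255 and 263770 in the R159 libraries against 439293, 510285 and 423045 in vehicle. Each R159 library was below each vehicle library, and the mean of R159 was 232078 ± 43678 against 457541 ± 46395 (SD, n = 3 each). The log2 fold change was -0.99 (SE 0.33, 95% interval -1.74 to -0.24), with limma adjusted p = 0.0535, so C3 missed the threshold. It passed in 6 of 18 alternative settings, and over all 18 the adjusted p was 0.0199 to 0.198. The transcript is long (5136 nt), and after length correction the value was -0.57 (adjusted p = 0.182).

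C4b, the C4 component that forms the classical and lectin C3 convertase with C2, measured 71196, 52208 and 84314 with R159 and 105269, 102387 and 122218 with vehicle. Its groups did not overlap either, with a log2 fold change of -0.69 (SE 0.25, limma adjusted p = 0.0713, transcript 5379 nt) and -0.25 after length correction. C2, the serine protease partner of C4b, came to 2484, 2502 and 4707 in R159 livers, and to 4272, 4671 and 3793 in vehicle livers. R159 replicate 3 alone reached the vehicle values, and without it C2 was called lower (-0.76, limma adjusted p = 0.0202). C3, C4b and C2 together made up 0.583%, 0.321% and 0.516% of all values in R159 and 1.00%, 1.10% and 0.929% in vehicle. All 32 members together made up 1.46%, 1.02% and 1.51% in R159 and 2.07%, 2.23% and 1.91% in vehicle. The most abundant members weigh most in these shares, and C3 alone averaged 232078 in R159 and 457541 in vehicle. The median log2 fold change of the 32 members was -0.08. The totals by which the sums were divided were 5.56e+07, 7.37e+07 and 6.83e+07 in R159 and 5.48e+07, 5.59e+07 and 5.91e+07 in vehicle.

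Reads of C4b cannot be assigned with full certainty. C4a, which encodes the sex-limited form of C4, shares 35.2% of the 50-base windows of the C4b transcript. C4a was 4613, 3701 and 7112 in the R159 libraries against 1655, 1846 and 688 in vehicle, and rose by 1.95 in log2 units (SE 0.37, limma adjusted p = 0.00787). It was called in all 17 alternative settings that could test it, and has no coding transcript length here. C4a took 6.09%, 6.62% and 7.78% of the C4a and C4b sum in R159 and 1.55%, 1.77% and 0.560% in vehicle. The paralogs thus lay on opposite sides of vehicle, with no overlap for either.

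Among the recognition molecules of the lectin pathway, Mbl1 rose. Mbl1 and Mbl2 encode the mannose-binding lectins, plasma collectins that bind sugars on microbes. Mbl1 measured 11346, 13967 and 12897 with R159 and 9646, 9322 and 8149 with vehicle, all R159 libraries above all vehicle libraries. The log2 fold change was 0.49 (SE 0.16, limma adjusted p = 0.0479, transcript 1563 nt). This call was lost in 10 of 18 alternative settings, among them length correction (0.24, adjusted p = 0.186). Mbl2 came to 19986, 33014 and 25958 in R159 livers, and to 18561, 19070 and 23626 in vehicle livers, with overlapping groups (0.34, adjusted p = 0.269). Its sign changed after length correction (-0.23, transcript 1089 nt). Colec11, which encodes collectin-11 and is expressed in stellate cells as well, had a log2 fold change of -0.03 (interval -0.68 to 0.62, transcript 1423 nt) and -0.37 after length correction.

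The proteases that the lectins activate lay on opposite sides of vehicle. Masp1, whose gene encodes MASP-1 and the alternatively spliced MASP-3, was 6195, 5175 and 8851 in the R159 libraries against 10123, 9963 and 11540 in vehicle. It fell by 0.68 in log2 units (SE 0.21, limma adjusted p = 0.0409, transcript 5345 nt), and lost its call in 10 of 18 alternative settings, among them each of the 3 without a vehicle library (adjusted p = 0.091 to 0.128) and length correction (-0.24, adjusted p = 0.399). Masp2, which encodes the protease that cleaves C4 and C2, measured 14353, 15844 and 17114 with R159 and 11426, 12090 and 12625 with vehicle. All R159 libraries lay above vehicle (0.39, SE 0.16, adjusted p = 0.0921), and after length correction Masp2 was called higher (0.55, adjusted p = 0.0203, transcript 3058 nt). The exons of Masp2 overlap those of Tardbp on the opposite strand. Tardbp came to 6339, 4925 and 4496 in R159 livers, and to 2937, 3297 and 2734 in vehicle livers. Whether counting used strand is not given in the sources used here, and the part of Tardbp in the Masp2 values was not tested. The ratio of Masp2 to Masp1 was 2.32, 3.06 and 1.93 in the R159 libraries against 1.13, 1.21 and 1.09 in vehicle (exact permutation p = 0.1, adjusted p = 0.18 over 9 ratios).

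**Figure D2:**
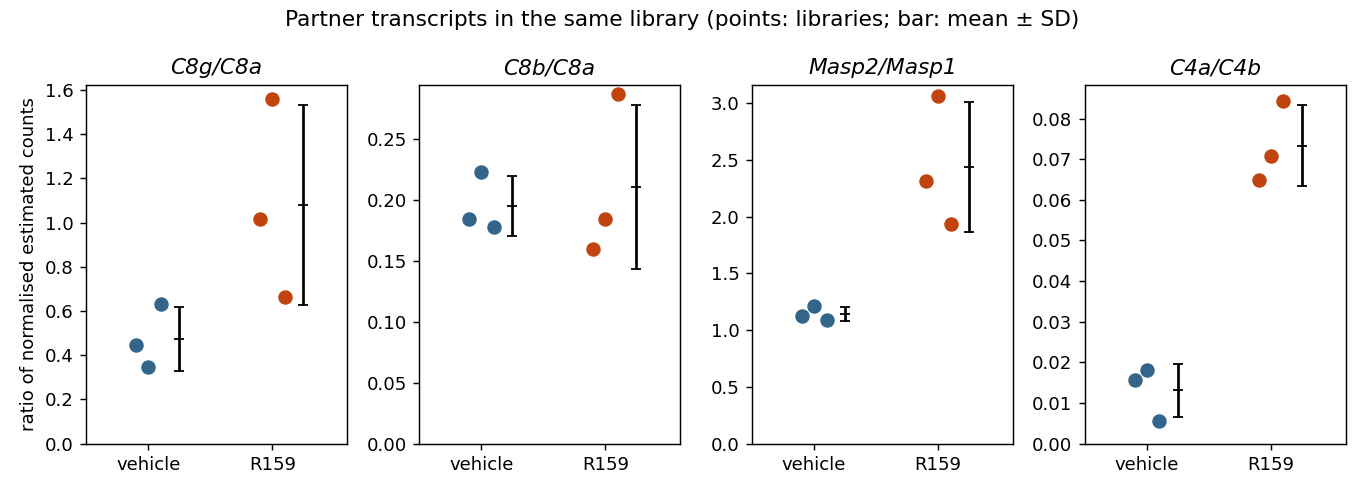
Ratios of normalised estimated counts of partner transcripts within the same library (points), with the mean and SD of each group of 3 beside them. The ratios C8g/C8a, Masp2/Masp1 and C4a/C4b are higher in every R159 library than in every vehicle library, and C8b/C8a overlaps.

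C1r and C1s are the proteases bound to C1q. C1ra measured 12632, 14882 and 21007 with R159 and 21280, 25249 and 21926 with vehicle, with R159 replicate 3 just under the lowest vehicle library (log2 fold change -0.53, limma adjusted p = 0.0962, transcript 2981 nt, and -0.38 after length correction). C1s1 was nearly level, 35348 ± 2040 in R159 and 35948 ± 1144.5 in vehicle (SD, n = 3 each; -0.03, interval -0.42 to 0.37), and its sign depended on the normalisation (0.00 by TMM and 0.10 by upper quartile). C1ra shares 50.8% of its 50-base windows with other genes, mainly its copy C1rb, and C1s1 shares 24.3% with C1s2. The values listed for those copies were low in every library, 6.09 to 19.0 for C1rb and 2.97 to 7.86 for C1s2. The ratio of C1ra to C1s1 was lower in all R159 libraries (0.370, 0.436 and 0.557) than in vehicle (0.611, 0.680 and 0.611; exact permutation p = 0.1, adjusted p = 0.18 over 9 ratios).

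To show where regulatory motifs known from interleukin-6 signalling lie in the members singled out above, the 250 bases before the annotated start are printed for C3, the transcript with the lowest fold change among hepatocyte-made members, C8g, the one with the highest, and Masp2, which holds a STAT match. They are from RefSeq on GRCm38.p6, which has an entry for 24 of the 32 members. Capitals mark matches, on either strand, to the STAT motif TTCNNNGAA or to the C/EBP motif TTNNGNAA. C3 lies on the minus strand (chr17:57228137-57228386), C8g on the minus strand (chr2:25501720-25501969) and Masp2 on the plus strand (chr4:148602294-148602543).
C3: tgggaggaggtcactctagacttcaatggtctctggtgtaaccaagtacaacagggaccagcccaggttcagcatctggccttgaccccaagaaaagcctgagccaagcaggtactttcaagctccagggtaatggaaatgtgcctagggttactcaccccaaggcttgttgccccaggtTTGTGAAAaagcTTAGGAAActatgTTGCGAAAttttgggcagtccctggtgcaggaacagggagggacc
C8g: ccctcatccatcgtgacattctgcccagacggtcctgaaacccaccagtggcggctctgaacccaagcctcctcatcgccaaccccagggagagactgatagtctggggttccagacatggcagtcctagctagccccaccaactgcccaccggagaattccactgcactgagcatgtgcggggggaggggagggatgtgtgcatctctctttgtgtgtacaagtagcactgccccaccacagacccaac
Masp2: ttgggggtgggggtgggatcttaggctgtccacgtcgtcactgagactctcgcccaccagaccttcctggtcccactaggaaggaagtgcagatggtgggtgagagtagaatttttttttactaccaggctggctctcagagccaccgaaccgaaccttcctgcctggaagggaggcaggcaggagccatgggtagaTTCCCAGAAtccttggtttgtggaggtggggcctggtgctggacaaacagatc
The C3 window holds 3 C/EBP matches, TTGTGAAA, TTAGGAAA and TTGCGAAA, which begin 70, 58 and 45 bases before the start. The Masp2 window holds a STAT match, TTCCCAGAA, which begins 53 bases before the start, and the C8g window holds these letters nowhere. The STAT letters occur in 3 of the 24 member windows (C8a, Colec11 and Masp2), a share of 12.5%, and in 7.14% of 27025 windows of all genes. The C/EBP letters occur in 10 of 24 (41.7%) and in 37.0% of all windows. A match describes the letters and does not show a binding site.

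The alternative pathway amplifies C3 cleavage. Cfb, the protease of its convertase, measured 62872, 75897 and 81560 in R159 and 78725, 82616 and 82214 in vehicle, with overlapping groups (log2 fold change -0.15, interval -0.64 to 0.34). Cfb and C2 share 81.4% and 58.0% of their 50-base windows with Gm20547, a read-through gene model that spans both, whose listed values were 26.7 to 512 in R159 and 33.1 to 114 in vehicle. Cfp, which encodes properdin, the stabiliser of that convertase, came to 950.4, 1344 and 1496 in R159 livers, and to 845, 1303 and 927 in vehicle livers. Cfd, or adipsin, the protease that cleaves factor B, varied most of all members. It was 72.6, 240.1 and 2956 in the R159 libraries against 511, 186 and 604 in vehicle, so both the lowest and the highest library were R159 (log2 fold change -0.05, interval -2.56 to 2.46, transcript 922 nt, and -0.78 after length correction). Adipocytes make much of it, and the 1 adipocyte marker over the filter, Trarg1, was low in every library (15.3 to 48.6). Adipoq, Lep, Retn and Plin1 had no row under these symbols and could not be tested.

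Soluble and membrane-bound regulators hold complement in check. Cfi, the protease that inactivates C3b and C4b, C4bp, the plasma protein that binds C4b, and Serping1, which encodes C1 inhibitor, had log2 fold changes of -0.12 (interval -0.63 to 0.39), 0.08 (-0.36 to 0.53) and -0.06 (-0.56 to 0.44). Clu, which encodes clusterin, an inhibitor of pore assembly, measured 78059, 65889 and 132391 with R159 and 137107, 132170 and 127756 with vehicle. R159 replicates 1 and 2 were far below vehicle and replicate 3 was level with it (-0.59, limma adjusted p = 0.169, transcript 1810 nt, and -0.73 after length correction). Without replicate 3 the value was -0.88 (adjusted p = 0.037).

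Of the 3 membrane regulators limma called 0 (2 at an unadjusted p under 0.05). Cd55, which speeds decay of the convertases, came to 495, 474 and 618 in R159 livers, and to 264, 368 and 389 in vehicle livers. The groups did not overlap (log2 fold change 0.65, SE 0.22, adjusted p = 0.0577), and limma called it higher in 6 of 18 alternative settings, length correction among them (0.70, adjusted p = 0.0449). Cd59a, which blocks insertion of C9, was 5161, 8172 and 5614 in the R159 libraries against 4196, 4001 and 4450 in vehicle, again without overlap (0.55, adjusted p = 0.0592, transcript 1806 nt, and 0.42 after length correction). Cr1l, which encodes Crry, the main rodent regulator of C3 on cells, was 2268 ± 175 in R159 and 2099 ± 128 in vehicle (SD, n = 3 each; 0.11, interval -0.22 to 0.44). Near copies share 13.3% of the 50-base windows of Cd55 (Cd55b), 3.98% of those of Cd59a (Cd59b) and 16.8% of those of Cr1l (Crry-ps), so some of these reads could be split. Genes on the opposite strand overlap exons of Cd55, Fcna, Hc, C1s1 and C2 as well, and their part in the values was not tested.

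**Figure D3:**
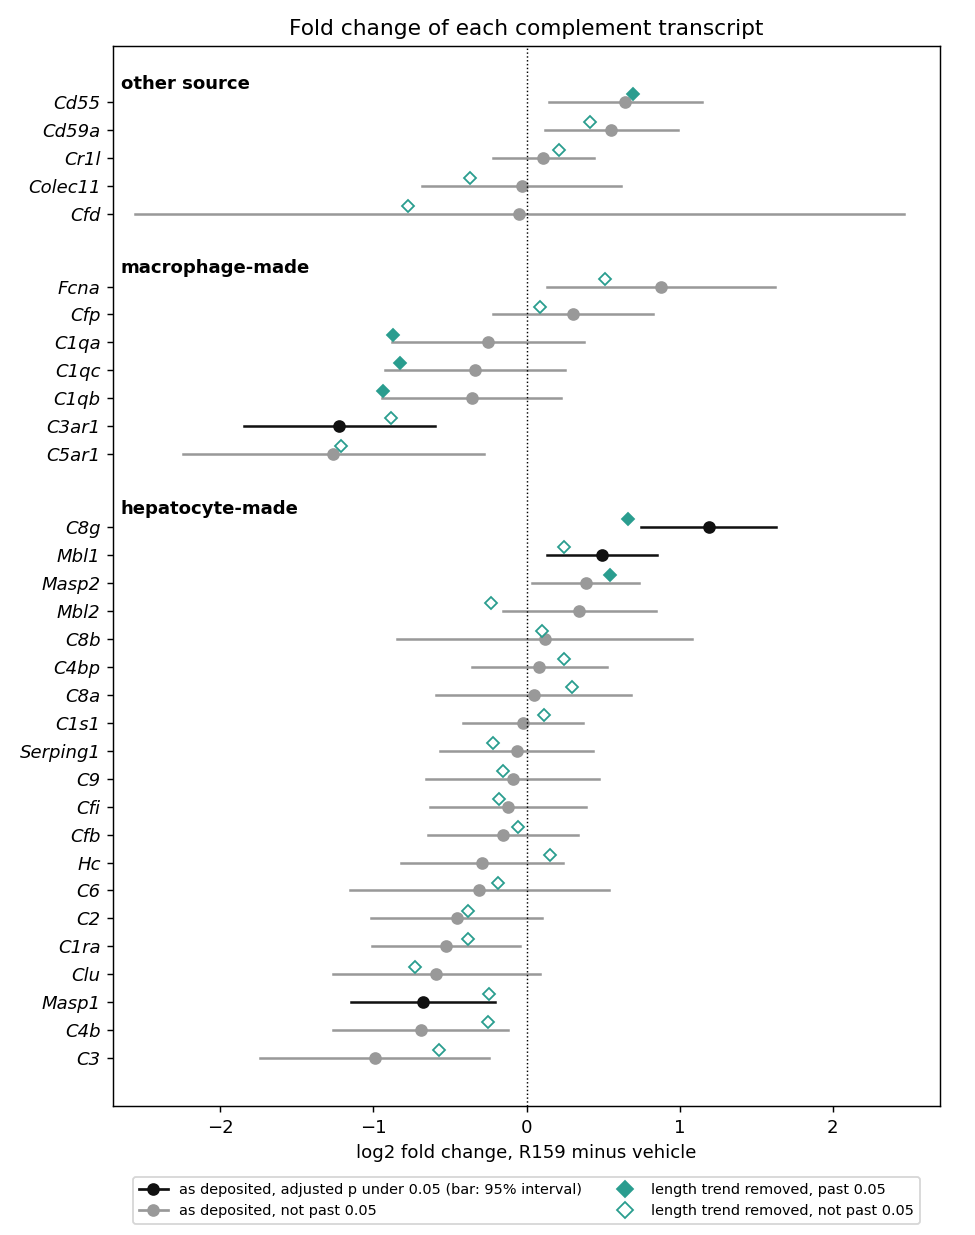
Log2 fold change (R159 minus vehicle) of each member with its 95% interval (circles and bars; black where limma's adjusted p is under 0.05) and the value after removal of the length trend (diamonds; filled where past 0.05). As deposited C8g, Mbl1, Masp1 and C3ar1 pass; with the trend removed C8g, Masp2, Cd55 and the 3 C1q chains pass.

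Of the macrophage-made receptors for the anaphylatoxins C3a and C5a, C3ar1 fell and C5ar1 did not pass. C3ar1, the C3a receptor, measured 103, 147 and 127 with R159 and 329, 348 and 216 with vehicle. It fell by 1.22 in log2 units (SE 0.28, limma adjusted p = 0.0138, transcript 4305 nt), with no overlap of the groups. Leaving out vehicle replicate 1 or 2 ended the call (limma adjusted p = 0.0586 and 0.0729), as did length correction (-0.89, adjusted p = 0.0658). C5ar1, the C5a receptor of macrophages and neutrophils, came to 50.9, 76.2 and 60.1 in R159 livers, and to 223, 198 and 75.4 in vehicle livers. Vehicle replicate 3 lay among the R159 libraries (-1.26, SE 0.44, adjusted p = 0.0585, and -1.21 after length correction), and without it C5ar1 was called lower (-1.75, adjusted p = 0.0232). C5ar2, the other receptor for C5a, was level (0.01, interval -0.70 to 0.71, limma adjusted p = 0.989).

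The 3 chains of C1q, which assemble into the recognition molecule of the classical pathway, kept nearly the same proportions in every library. C1qa was 1833, 3554 and 3639 in the R159 libraries against 3756, 3971 and 2680 in vehicle. C1qb measured 1856, 3270 and 3119 with R159 and 3988, 3939 and 2545 with vehicle. C1qc came to 1867, 3061 and 3517 in R159 livers, and to 3741, 4101 and 2643 in vehicle livers. R159 replicate 1 was the lowest library for each chain, vehicle replicate 3 was next, and the groups overlapped. The ratio of C1qb to C1qa stayed between 0.857 and 1.06 and that of C1qc to C1qa between 0.861 and 1.03 in the 6 libraries. As deposited the log2 fold changes were -0.25, -0.36 and -0.34 for C1qa, C1qb and C1qc (limma adjusted p = 0.524, 0.325 and 0.356). The transcripts are short (1040, 1088 and 1203 nt). After length correction, where 8.74% of all genes were called lower, all 3 were called lower, at -0.87, -0.94 and -0.83 (adjusted p = 0.0247, 0.0152 and 0.0297).

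Fcna, a ficolin of macrophages that also starts the lectin pathway, lay above vehicle. It was 1514, 3193 and 1291 in the R159 libraries against 785, 1271 and 1008 in vehicle, with R159 replicate 3 just above the highest vehicle library (log2 fold change 0.88, SE 0.33, limma adjusted p = 0.0759, transcript 1374 nt, and 0.51 after length correction).

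Markers of macrophages also differed between the groups. Of 8 Kupffer cell markers, genes of the resident liver macrophage, 0 rose and 4 fell by limma, where 14.2% of all genes were called lower. The groups did not overlap for 4 that were lower and 2 that were higher, against 23.6% and 22.5% of all genes. The summed level of the 8 was 14263 to 16139 in R159 and 19062 to 27273 in vehicle. Cd5l fell by 1.11 in log2 units (adjusted p = 0.00664), while Clec4f had a value of 0.20 (adjusted p = 0.66). Timd4, higher in every R159 library than in every vehicle library, had a value of 2.09 (adjusted p = 0.0872). Of 9 markers of macrophages that come from monocytes or carry lipid, 0 rose and 3 fell, again beside 14.2% of all genes called lower. Their sums were 9037 to 11937 in R159 and 10615 to 22486 in vehicle. The sums are weighted to the most abundant markers and do not stand for each marker of a list. Ccr2 fell by 0.94 (adjusted p = 0.045), and Ly6c2 and Trem2 had values of -0.75 and -1.08 (adjusted p = 0.323 and 0.0868). No marker of either list was at 0 in any library. Of 7 neutrophil markers limma called 0 (2 at an unadjusted p under 0.05), with sums of 436 to 1260 in R159 and 234 to 529 in vehicle. Of 7 stellate cell markers 0 rose and 2 fell, where 12.8% of all genes were called higher and 14.2% lower. Of 6 markers of sinusoidal endothelium limma called 0 (3 at an unadjusted p under 0.05). In bulk tissue fewer cells of a type and less RNA per cell cannot be told apart, and the part of macrophage number in the values of C1q, C3ar1, C5ar1 and Fcna was not tested.

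**Figure D4:**
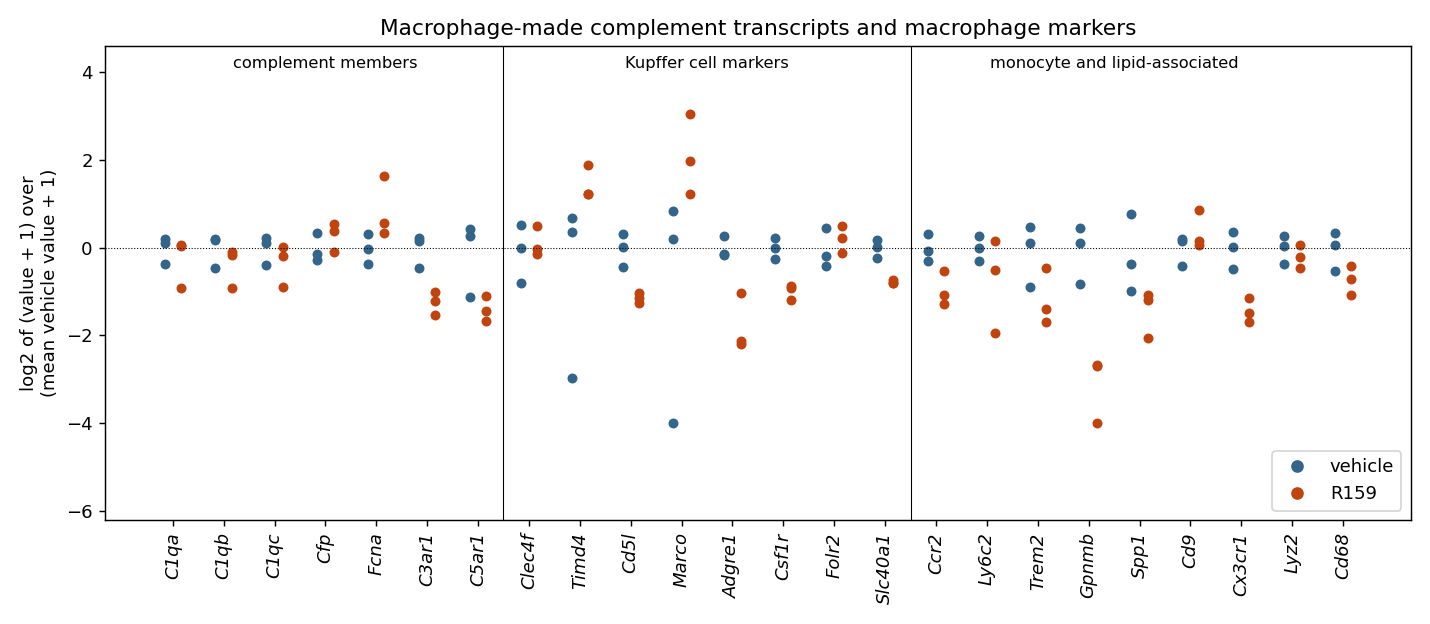
Each library's value relative to the vehicle mean, as log2 of (value + 1) over (mean vehicle value + 1), for the 7 macrophage-made complement members, 8 Kupffer cell markers and 9 markers of macrophages that come from monocytes or carry lipid. C3ar1 and several markers lie below vehicle in all R159 libraries, Fcna and 2 Kupffer cell markers lie above, and the C1q chains overlap.

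Other genes of the complement pathway gave 4 called higher and 3 called lower of 24 tested (median log2 fold change 0.10), where 27.0% of all genes were called. At an unadjusted p under 0.05 there were 11 of the 24, against 6880 of all 16594 tested genes. Among the called pathway genes C4a, described above, and Cd46 rose, and Cpn2 and Itgb2 fell. Cd46, a membrane cofactor for factor I with low levels in mouse liver, measured 147, 100.2 and 98.0 with R159 and 43.0, 54.3 and 26.5 with vehicle. It rose by 1.49 in log2 units (limma adjusted p = 0.0222) and passed after length correction too (1.98, adjusted p = 0.0112). Cpn2, a subunit of the carboxypeptidase that inactivates anaphylatoxins, fell by 0.93 (adjusted p = 0.0337). Itgb2, the beta chain shared by complement receptors 3 and 4 of leukocytes, fell by 0.83 (adjusted p = 0.0422). The calls of Cpn2 and Itgb2 were lost in 8 and 10 of 18 alternative settings, among them length correction (-0.57, adjusted p = 0.13, and -0.68, adjusted p = 0.0923).

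Across the 32 members the log2 fold change decreased with transcript length (Spearman's rho = -0.39, given as a description over genes measured in the same libraries), close to the -0.44 over all coding genes. C8g stands well above the run of genes of its length, and C5ar1, C3ar1 and C3 below it. After length correction 3 members were called higher (C8g, Masp2 and Cd55) and 3 lower (the C1q chains), where 9.93% of 13501 genes were called higher, 8.74% lower and 18.7% in all.

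**Figure D5:**
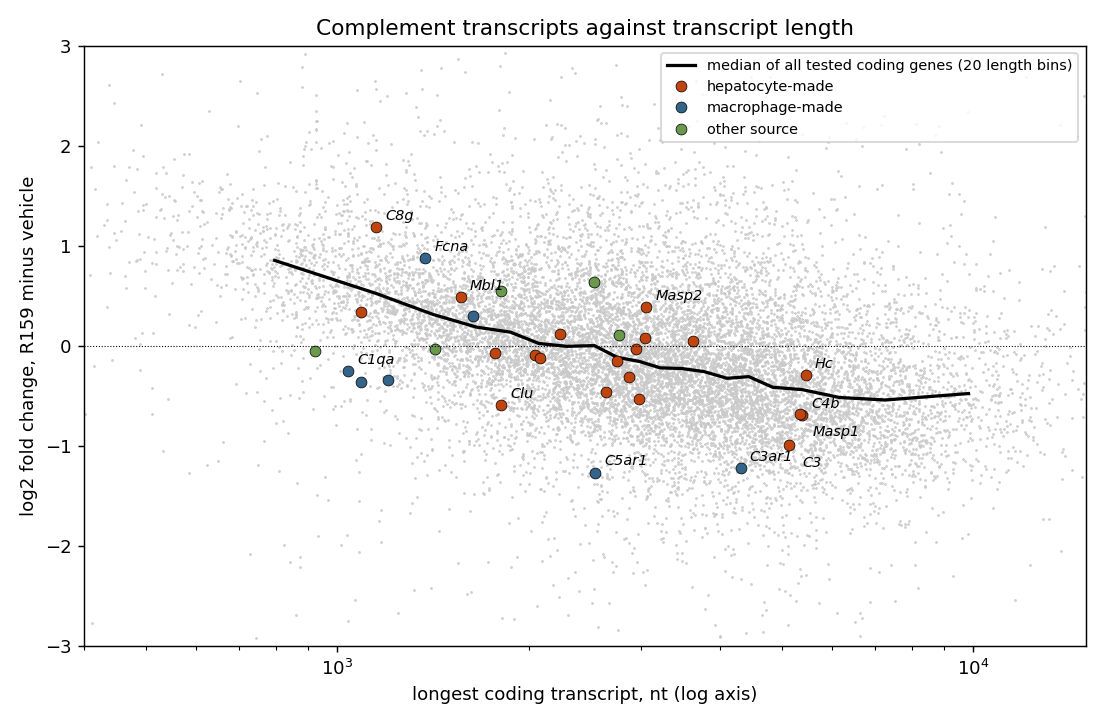
Log2 fold change (R159 minus vehicle) against the longest coding transcript (log axis) for all tested coding genes (grey; points beyond the axes are not drawn), their median in 20 length bins (line) and the complement members by source (coloured). C8g (1150 nt, 1.19) lies above the line, while C1qa (1040 nt, -0.25), C5ar1 (2540 nt, -1.26) and C3 (5136 nt, -0.99) lie below it.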

How the data were processed

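The members and lists were chosen with earlier results of these data known. Per the labels' protocols, the poly(A) libraries were stranded and read as 50-base pairs. The submitters' processing notes name STAR 2.7.8a, cutadapt, FastQC 0.11.9, R 4.2.3, a DESeq2 version given as 3.5, and the mm39 build. Which counter and annotation made the values is not given in the sources used here. The deposited values are a signal: estimated gene counts that the authors scaled by 1 factor per sample. Among values worth fewer than 200 reads, 67.8% to 76.1% came within 0.02 of a whole read, so no count model was used as the main test.

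Each value plus 1 was put on a log2 scale and tested with limma 3.58.1 (R 4.3.3; trended eBayes; group alone in the model) over the 16594 genes with a mean of at least 10. The p-values were adjusted by Benjamini-Hochberg and called under 0.05. Low genes change by more than this scale shows. Transcript length was the longest coding transcript in GENCODE M21 on GRCm38, a build other than mm39, and was found for 13501 tested genes and all 32 members. To remove the length trend, each library's deviations were smoothed against log2 length (lowess, span 0.3, genes with a mean of at least 100) and the curve was subtracted. Shared 50-base windows were counted against all GENCODE M21 transcripts. The method was also run on simulated data with the same scatter in both groups, unlike the libraries here, so nothing is concluded from that run. All members are named. Outside them the text names called pathway genes (up to 4 of smallest p in each direction; some are not reported here) and the first 3 markers over the filter of the macrophage lists. Genes that overlap a member or share windows with it were named after their values were seen. The alternatives were TMM and upper quartile scaling, pseudocounts of 0.5 and 8, a minimum mean of 50 or none, eBayes untrended or robust, sample weights, a replicate block, length correction, limma-voom on estimated reads, and each library left out in turn.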

Additional observations from a re-analysis of the deposited data

How the results depend on the processing

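The call of C8g held in all 18 alternative settings and that of C4a in the 17 that could test it. limma called 4479 genes as reported, 2498, 1854 and 2185 without vehicle replicates 1, 2 and 3, and 5420, 3348 and 3915 without R159 replicates 1, 2 and 3. It called 5579 with sample weights, 3085 without the eBayes trend, and 2520 after length correction, where fewer genes were tested. Of all tested genes 27.0% were called as reported, 26.43% with upper quartile normalisation, 27.11% with robust eBayes and 23.77% with the replicate block. The share was 33.2% with a mean of at least 50, 33.62% with sample weights, 23.57% without the filter and 18.59% without the eBayes trend. It was 18.67% after length correction and 11.17% to 32.66% when 1 library was left out. The member counts below stand beside these shares. Hepatocyte-made members called lower numbered 1 as reported, 0 with upper quartile normalisation and after length correction, 2 with a mean of at least 50, robust eBayes or the replicate block, and 0 to 5 when 1 library was left out. Those called higher numbered 2 as reported, 3 with upper quartile normalisation or sample weights, 1 without the filter, without the eBayes trend, with robust eBayes or with the replicate block, and 1 to 3 when 1 library was left out. Macrophage-made members called lower numbered 1 as reported, 2 with sample weights, 3 after length correction and 0 to 2 when 1 library was left out. Those called higher numbered 0 as reported, 1 with the replicate block (Fcna) and 0 to 1 when 1 library was left out. Apart from the length correction and the libraries left out, the cause was not tested.

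Values that changed sign belonged to members that limma called in neither setting. With upper quartile normalisation they were C1s1 (0.0985), C9 (0.0326), Cfi (0.00157), Cfd (0.0765), Serping1 (0.0597) and Colec11 (0.0919), with TMM C1s1 (0.00476) and with limma-voom C1s1 (0.00134). After length correction they were C1s1 (0.112), Hc (0.152) and Mbl2 (-0.235), and with sample weights Cfd (1.48), Serping1 (0.00798) and Colec11 (0.357). When 1 library was left out, C1qa ranged from -0.427 to 0.0727, C8a from -0.237 to 0.225 and C8b from -0.414 to 0.425. C9 ranged from -0.292 to 0.0743, Cfd from -1.54 to 1.13 and C4bp from -0.0305 to 0.176. Serping1 ranged from -0.225 to 0.0433 and Colec11 from -0.333 to 0.254.

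The replicate block gave 3945 calls. Libraries with the same number did not deviate together in all pairs (r = -0.098, 0.031 and 0.11 for numbers 1 to 3), and R159 replicates 1 and 2 correlated best with another number, so the numbers were not taken as a pairing. Counting error was not separated from the spread between libraries. It weighs most on C5ar1, C3ar1 and Cd55, the members with the lowest values.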

Other observations

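The libraries can be ordered by Cfd and by the markers of neutrophils, a cell type that also makes factor D. R159 replicate 3, the library with the most Cfd, was the highest R159 library for 6 of the 7 neutrophil markers tested, the exception being Cxcr2 (11.9, 40.3 and 18.4 in replicates 1 to 3). It was also the highest R159 library for 22 of the 32 members, and for 28.7% of all tested genes. Among vehicle libraries, where Cfd was 511, 186 and 604, replicate 3 was the lowest for 5 of the 7 markers, and for 5799 of all 16594 tested genes. Some of the 7 markers had low values, as Cxcr2 did (7.54 to 40.3 over all libraries). The part of neutrophils in the Cfd values was not tested.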
